A study of Mus musculus with 6 samples.

Results

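The genes described here build and regulate the contacts between epithelial cells, together with a few genes of the periderm, the flat outer layer that covers embryonic epithelia. They were chosen by symbol from a list of 35 members. The list was made of adherens junction, desmosome, tight junction and gap junction genes, surface proteases with their inhibitors, and periderm genes. It was drawn up with earlier results of these data known. All 35 were among the 49492 gene symbols of the deposited table, and all 35 passed the filter on low counts that left 19284 genes for testing. Poly(A) RNA was sequenced from palatal shelves, paired outgrowths that meet to make the palate, taken at E14.5 from embryos of C57BL mice. Control libraries, 3 in all, were Prmt1 fl/fl, with loxP sites in both copies of Prmt1, and the 3 deletion libraries were Wnt1-Cre; Prmt1 fl/fl, so both groups carry the floxed alleles. Wnt1-Cre recombines in neural crest cells, the source of most mesenchyme in the palate, and no library had Cre without the floxed alleles. Palatal epithelium has another origin, so the members are mostly expressed in cells outside the lineage that the Cre marks. The Prmt1 protein adds asymmetric dimethyl marks to arginines and is the chief enzyme of that kind.

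Epithelial cells are joined by adherens junctions, in which cadherins bind across the gap between cells, and by desmosomes, in which desmosomal cadherins are tied to keratin filaments through plakoglobin, plakophilins and desmoplakin. Tight junctions, built from claudins, occludin and their scaffold proteins, seal the space near the cell surface, and gap junctions made of connexins join the cytoplasm of neighbours. In the palate the periderm covers the shelves and is shed or displaced when they meet, and the epithelium between the shelves must be removed before the mesenchyme becomes continuous.

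Each library goes by the start of its column name, cont212, cont213 and cont220 for control and mut208, mut211 and mut221 for deletion. They held 44919889 to 50022829 estimated counts. Nothing in the labels ties each library to its own embryo. The p-values thus cover only how these libraries vary, which may be technical. Prmt1 itself was at 258, 249.7 and 246 CPM (control) against 201, 206 and 217 CPM (deletion), lower in every deletion library (log2 fold change -0.27 ± 0.05, edgeR adjusted p = 0.0113). CPM are counts scaled to library size with edgeR's TMM factors. Controls cont212 and cont213 had male profiles, with 15.57 and 16.02 CPM of Xist. Control library cont220 and the 3 deletion libraries had female profiles, with 3374 to 4451 CPM. Hbb-y counts divided by those of adult beta-globin, a ratio that declines as embryos develop, came to 0.0946 and 0.0779 in cont212 and cont213, 0.200 in cont220 and 0.191 to 0.320 in the deletion libraries. Only control library cont220 thus matched the deletion libraries in both respects. On the second principal component of all genes, however, cont220 lay with mut221 (-30.0 and -31.8), far from mut208 and mut211 (17.8 and 16.1). The members are compared again below against cont220 alone, in a fit whose 1 control is assumed to vary like the deletion libraries.

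Of the 35 members, 18 fell and 0 rose in the deletion libraries, at a threshold of 0.05 in edgeR's quasi-likelihood test, adjusted over all tested genes. Over all tested genes 7.01% were called: 3.37% fell and 3.65% rose. Because the members were chosen with earlier results of these data known, their count and these shares are not an independent comparison. At an unadjusted p under 0.05, 20 members were lower and 1, Cldn1, was higher. The share of all tested genes at that unadjusted threshold is not given, here or for the lists below. DESeq2 called 20 members lower and 0 higher, where 5.38% of all tested genes were called lower. The median log2 fold change (deletion minus control) was -0.39 over the members, with 31 of 35 below 0, and 0.00 over all tested genes. In 20 members every deletion library lay below every control, and in 1 member, Cldn1, every deletion library lay above, while 13.5% and 14.1% of all tested genes did so. Most falls were small: 13 of the 18 were less than 2-fold, and the other 5 (Dsg3, Pkp1, Lgals7, Krtdap and Gjb2) were 2.26-fold to 3.27-fold. In these bulk libraries, fewer epithelial cells and less RNA of a gene per epithelial cell cannot be told apart.

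**Figure D1:**
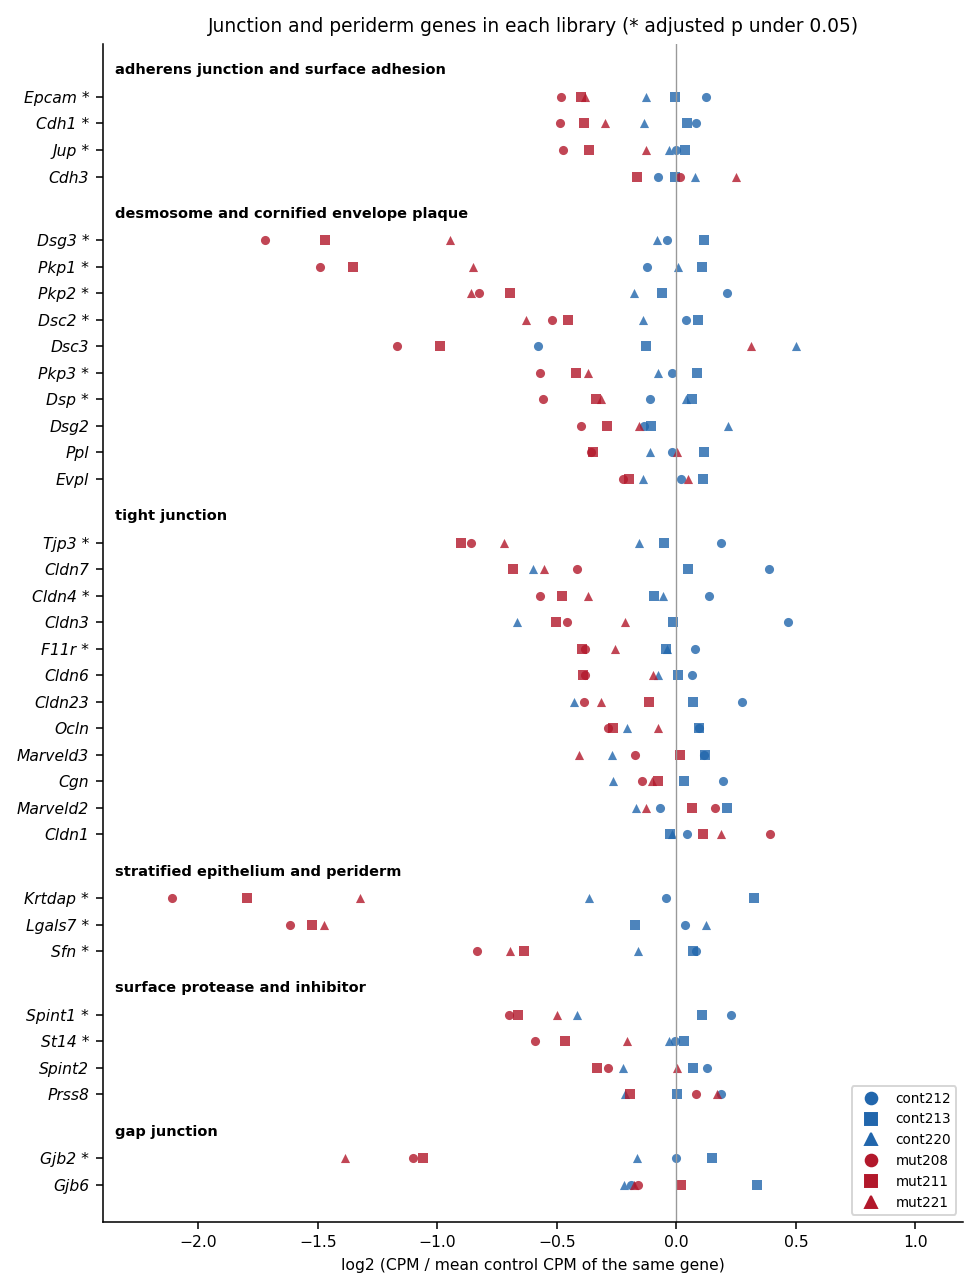
Level of each of the 35 members in each library, as log2 of its CPM over the mean control CPM of the same gene, grouped by role and ordered by fold change. Blue symbols are controls, red symbols Prmt1 deletion libraries, and an asterisk marks members past the threshold: the 18 marked genes have all red symbols to the left of all blue ones.

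Of the stratified epithelium and periderm genes 3 of 3 fell, with a median log2 fold change of -1.54. Lgals7, which encodes the epithelial galectin-7, was at 7.49, 6.49 and 7.97 CPM (control) against 2.38, 2.54 and 2.63 CPM (deletion). The 3 deletion values lay close together, far below the lowest control, and control library cont220 was the highest of all (2.90-fold lower, log2 fold change -1.54 ± 0.15, SE, edgeR adjusted p = 0.000457). Sfn, which encodes 14-3-3 sigma, a regulator of keratinocyte differentiation that marks periderm and upper layers, was at 134, 133 and 113 CPM in the controls. Its deletion libraries were at 71.0, 81.4 and 78.3 CPM, so the groups were well apart (1.65-fold lower, log2 fold change -0.72 ± 0.07, edgeR adjusted p = 0.000645). Krtdap, a secreted protein of differentiating keratinocytes, was scarce, at 1.85, 2.38 and 1.47 CPM (control) against 0.440, 0.548 and 0.759 CPM (deletion). Its fold was the greatest among the members at 3.27, but it rests on counts of 22 to 118 per library, with a 95% interval of -2.395 to -1.02 on the log2 scale (edgeR adjusted p = 0.00931). Per kilobase of exon, Sfn was the most abundant of the 35 members in the controls, at 78.6 CPM per kb, and Lgals7 and Krtdap were at 7.89 and 2.80.

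Of the 10 desmosome and cornified envelope plaque members 6 fell, and all 10 had a log2 fold change below 0. The desmosomal cadherin Dsg3, a desmoglein of basal keratinocytes and oral epithelium, was at 11.05, 12.3 and 10.7 CPM (control) against 3.44, 4.10 and 5.89 CPM (deletion). Every deletion value was well below the controls, with mut221 the highest of them (2.54-fold lower, log2 fold change -1.35 ± 0.18, edgeR adjusted p = 0.00234). Pkp1, the plakophilin of stratified epithelia, which clusters desmosomal proteins, was at 57.8, 67.8 and 63.2 CPM (control) against 22.4, 24.6 and 34.9 CPM (deletion). The groups did not overlap and library mut221 again came nearest to the controls (2.31-fold lower, log2 fold change -1.21 ± 0.17, edgeR adjusted p = 0.0102). Its relatives Pkp2, found in simple and stratified epithelia, and Pkp3, found in most epithelial desmosomes, fell less. Pkp2 was at 4.93, 4.08 and 3.76 CPM (control) against 2.403, 2.63 and 2.34 CPM (deletion; 1.73-fold, edgeR adjusted p = 0.0223). Pkp3 was at 29.7, 31.9 and 28.5 CPM (control) against 20.2, 22.5 and 23.3 CPM (deletion; 1.37-fold, edgeR adjusted p = 0.00824). Both had groups that did not overlap. The desmocollin Dsc2, the more widely expressed of these desmosomal cadherins, was at 59.4, 61.5 and 52.5 CPM (control) against 40.3, 42.2 and 37.4 CPM (deletion), again without overlap (1.45-fold, edgeR adjusted p = 0.00265). Desmoplakin, the linker to keratin filaments encoded by Dsp, was the member with the most reads. It was at 321, 363 and 356 CPM (control) against 235, 274 and 279 CPM (deletion), below every control (1.32-fold lower, edgeR adjusted p = 0.0102).

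Of the 4 desmosome members that did not pass, Dsg2, the desmoglein of simple epithelia and heart, had the largest deviation relative to its error. It was at 34.8, 35.4 and 44.4 CPM (control) against 29.0, 31.3 and 34.3 CPM (deletion), without overlap but with the lowest control close to the highest deletion value (log2 fold change -0.28 ± 0.10, edgeR adjusted p = 0.132). The periplakin and envoplakin genes Ppl and Evpl, which encode plakins of the cornified envelope, overlapped between groups (log2 fold change -0.23 for Ppl, with edgeR adjusted p = 0.231, and -0.12 for Evpl, with 0.527). Dsc3, the desmocollin of basal layers, had the widest spread among libraries relative to its mean in both groups. It was at 26.9, 36.8 and 56.9 CPM (control) against 17.9, 20.2 and 49.9 CPM (deletion; log2 fold change -0.45 ± 0.56, 95% interval -1.98 to 1.07, edgeR adjusted p = 0.719). Libraries cont220 and mut221, which stand apart from the other 4 on the second principal component of all genes, held its highest values. Trp63, the regulator of basal epithelium, was likewise highest there, at 59.9, 65.6 and 77.5 CPM (control) against 49.5, 60.8 and 81.0 CPM (deletion; edgeR adjusted p = 0.866).

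Among adherens junction and surface adhesion members, 3 of 4 fell, each by a similar small step. E-cadherin, the main epithelial cadherin encoded by Cdh1, was at 139, 135 and 119.8 CPM (control) against 93.8, 101 and 107 CPM (deletion; 1.31-fold lower, log2 fold change -0.39 ± 0.07, edgeR adjusted p = 0.00763). Epcam, a surface protein of nearly all embryonic epithelia, was at 114, 104 and 95.8 CPM (control) against 74.8, 79.3 and 80.2 CPM (deletion; 1.34-fold lower, log2 fold change -0.42 ± 0.07, edgeR adjusted p = 0.00432). In both genes control library cont220 was the lowest control and still above every deletion library. Plakoglobin, the catenin shared by adherens junctions and desmosomes and encoded by Jup, was at 109.6, 112 and 107 CPM (control) against 78.9, 85.3 and 100.4 CPM (deletion; 1.24-fold lower, edgeR adjusted p = 0.0382). Its controls were tight, and deletion library mut221 came nearest to them. P-cadherin, the cadherin of basal epithelium encoded by Cdh3, did not follow, at 46.2, 48.6 and 51.5 CPM (control) against 49.2, 43.4 and 57.9 CPM (deletion), with groups that overlapped fully (log2 fold change 0.04 ± 0.10, 95% interval -0.17 to 0.25, edgeR adjusted p = 0.856).

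**Figure D2:**
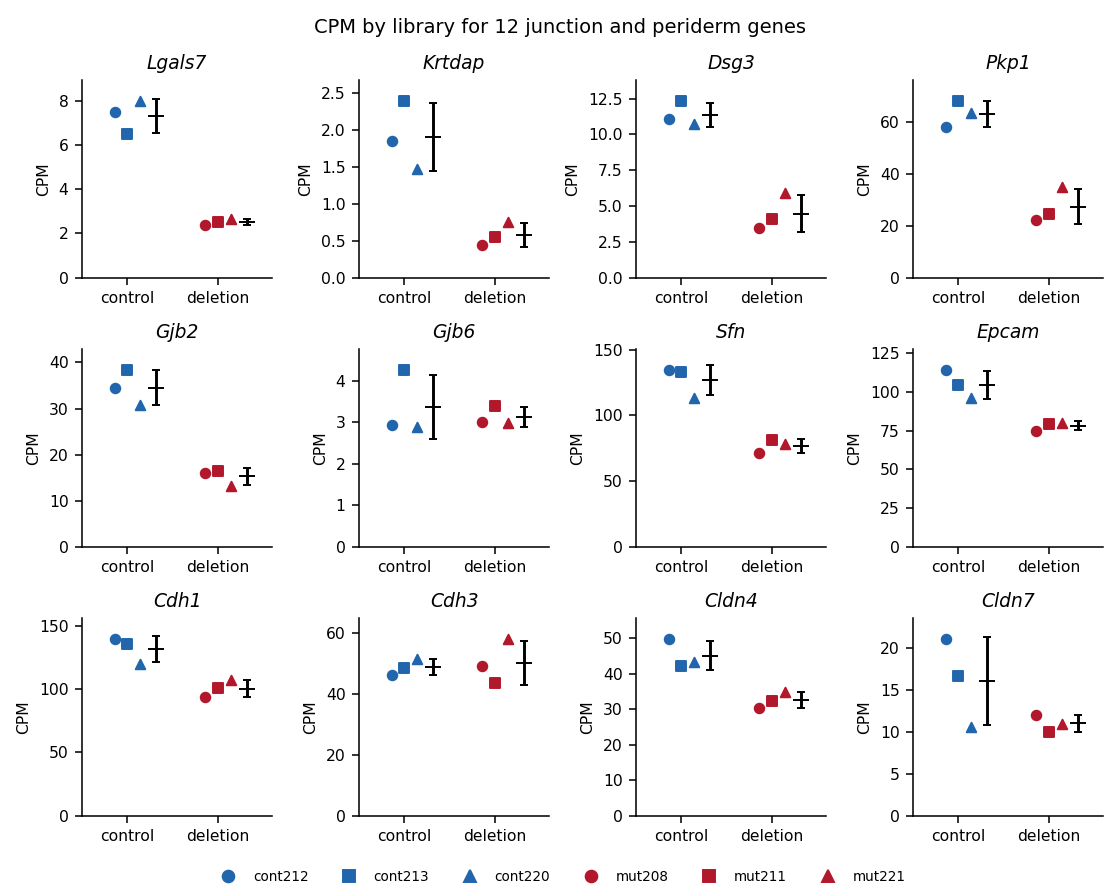
CPM of 12 members by library on axes from 0, with blue symbols for control and red for Prmt1 deletion libraries, and black marks for mean and SD of 3 libraries. Lgals7, Krtdap, Dsg3, Pkp1, Gjb2 and Sfn are clearly separated, Gjb6 and Cdh3 overlap, and in Cldn7 control library cont220 (triangle) lies among the deletion libraries.

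The tight junction, with 12 members, had the most mixed result: 3 fell, 0 rose and 9 did not pass. Tjp3, which encodes the scaffold protein ZO-3, was at 6.99, 5.92 and 5.50 CPM (control) against 3.38, 3.29 and 3.73 CPM (deletion; 1.77-fold lower, log2 fold change -0.82 ± 0.15, edgeR adjusted p = 0.0105). Cldn4, a claudin of many epithelia, was at 49.7, 42.3 and 43.5 CPM (control) against 30.4, 32.4 and 34.9 CPM (deletion; 1.39-fold lower, log2 fold change -0.47 ± 0.08, edgeR adjusted p = 0.00657). F11r, which encodes the adhesion molecule JAM-A, was at 45.3, 41.6 and 41.7 CPM (control) against 32.9, 32.6 and 35.9 CPM (deletion; 1.27-fold lower, edgeR adjusted p = 0.0135). In all 3 genes the groups were apart. The embryonic claudin Cldn6 was at 45.5, 43.7 and 41.1 CPM (control) against 33.3, 33.1 and 40.5 CPM (deletion), without overlap, but deletion library mut221 nearly reached control library cont220 (log2 fold change -0.28 ± 0.09, edgeR adjusted p = 0.072). Cldn1, the claudin that forms the epidermal barrier, was the 1 member above every control in every deletion library, at 25.9, 24.7 and 24.8 CPM (control) against 33.0, 27.2 and 28.6 CPM (deletion), and it did not pass (log2 fold change 0.24 ± 0.08, edgeR adjusted p = 0.119).

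For several tight junction genes the controls themselves differed. Cldn7, a claudin of simple epithelia and glands, was at 21.0, 16.6 and 10.6 CPM (control) against 12.1, 10.01 and 10.9 CPM (deletion), so that control library cont220 lay within the deletion range (log2 fold change -0.55 ± 0.23, edgeR adjusted p = 0.225). Cldn3, of similar distribution, was at 10.4, 7.46 and 4.75 CPM (control) against 5.49, 5.32 and 6.50 CPM (deletion), and here control library cont220 was below all 3 deletion libraries (log2 fold change -0.39 ± 0.25, edgeR adjusted p = 0.414). The other 5 that did not pass were Cldn23, the occludin gene Ocln, the scaffold gene Cgn for cingulin, and Marveld2 and Marveld3, of which the first encodes tricellulin at the corners between 3 cells. Their log2 fold changes ran from -0.27 (Cldn23) to 0.04 (Marveld2), and all 5 had overlapping groups.

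In the protease group, St14 and Spint1 fell and Spint2 and Prss8 did not pass. St14 encodes matriptase, a protease on the epithelial surface, and was at 27.0, 27.8 and 26.6 CPM (control) against 18.0, 19.7 and 23.5 CPM (deletion; 1.33-fold lower, log2 fold change -0.41 ± 0.10, edgeR adjusted p = 0.0275). The controls of St14 were within a narrow range that no deletion library reached. Its inhibitor HAI-1 is encoded by Spint1, which was at 23.98, 22.1 and 15.3 CPM (control) against 12.6, 12.9 and 14.49 CPM (deletion), with control library cont220 little above the deletion libraries (1.54-fold lower, edgeR adjusted p = 0.0416). The second inhibitor gene, Spint2, was at 62.3 ± 7.86 and 54.3 ± 7.05 CPM in control and deletion (SD, n = 3 each, log2 fold change -0.20 ± 0.11, edgeR adjusted p = 0.355). Prss8, which encodes prostasin, the protease that acts in a cascade with matriptase, was at 8.70 ± 1.196 and 8.86 ± 1.13 CPM likewise (log2 fold change 0.03 ± 0.14, edgeR adjusted p = 0.942). Prss8 overlaps Kat8 on the opposite strand by 122 bases and Tjp3 overlaps Apba3 by 40, and the strand setting of the counts is not given in the sources used here.

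Of the 2 connexins, Gjb2 fell and its neighbour Gjb6 did not pass. Gjb2, which encodes connexin 26, was at 34.5, 38.3 and 30.8 CPM (control) against 16.1, 16.5 and 13.2 CPM (deletion). The groups were far apart (2.26-fold lower, log2 fold change -1.18 ± 0.11, edgeR adjusted p = 0.000315), the lowest adjusted p of the 35 members. Gjb6, which encodes connexin 30, was at 2.94, 4.24 and 2.88 CPM (control) against 3.00, 3.40 and 2.97 CPM (deletion), with overlapping groups (log2 fold change -0.10 ± 0.20, 95% interval -0.54 to 0.33, edgeR adjusted p = 0.815).

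The Gjb2 and Gjb6 genes lie on chromosome 14 with 18600 bases between them (mm10, GENCODE M21) and 1 other protein-coding gene in that stretch, at 57098600 to 57104702 and 57123303 to 57133611, both on the minus strand. The log2 ratio of Gjb2 to Gjb6 was 3.55, 3.17 and 3.42 in the controls and 2.42, 2.28 and 2.15 in the deletion libraries, a difference of -1.09 (exact permutation test, two-sided p = 0.1, the smallest that 3 against 3 allows). In each of the 5 pairs compared, the first gene had been called lower and the second had not, so a lower ratio was largely built in. Not every pair of nearby members was among them: Ocln and Marveld2, on chromosome 13 and both not called, were left out. Cdh1 and Cdh3, also with 1 other protein-coding gene between them, had ratios of 1.59, 1.48 and 1.22 in the controls and 0.93, 1.21 and 0.88 in the deletion libraries. Those were barely without overlap, a difference of -0.42 (exact p = 0.1). Dsg3 and Dsg2 differed likewise, by -1.11, with ratios of -1.66, -1.53 and -2.05 and -3.07, -2.93 and -2.54 (exact p = 0.1). For Cldn4 against Cldn3 and for Dsc2 against Dsc3 the ratios overlapped between groups, with differences of -0.15 and 0.02 (exact p = 0.8 and 0.9). Adjusted over the 5 pairs the p-values were 0.167 for the first 3 and 0.9 for the other 2, so no pair could pass in this design. Within 3 of the 5 pairs, then, the first gene was lower relative to its partner in every deletion library than in any control.

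Sequences just before the gene start are shown for the 2 members that were called lower under every alternative, Lgals7 and Gjb2, for Gjb6, the neighbour that was not called, and for Sfn, the third member called with embryo sex as a covariate. Each is the 250 bases before the start in RefSeq (GRCm38.p6), 5′ to 3′ on the strand of the gene, with capitals for matches to any of 4 motifs searched on both strands: AACCNGTT, the core bound by Grainyhead-like factors, CACCTG, the E-box bound by Snail and Zeb repressors, GCCNNNGGC, bound by AP-2 factors, and the TATA box TATAAA. No matches overlapped each other in these windows. The windows are chr7:28864136-28864385 on the plus strand for Lgals7, and chr14:57104703-57104952, chr14:57133612-57133861 and chr4:133602169-133602418 on the minus strand for the others.
Lgals7: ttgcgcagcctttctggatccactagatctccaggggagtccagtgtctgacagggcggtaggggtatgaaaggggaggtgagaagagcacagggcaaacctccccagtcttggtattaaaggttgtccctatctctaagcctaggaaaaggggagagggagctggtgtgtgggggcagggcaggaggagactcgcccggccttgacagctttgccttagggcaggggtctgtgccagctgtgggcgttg
Gjb2: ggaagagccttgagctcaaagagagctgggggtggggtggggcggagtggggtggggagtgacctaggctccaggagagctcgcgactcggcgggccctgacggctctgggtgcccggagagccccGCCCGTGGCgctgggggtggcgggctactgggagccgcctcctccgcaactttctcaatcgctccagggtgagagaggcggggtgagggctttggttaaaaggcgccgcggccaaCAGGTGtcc
Gjb6: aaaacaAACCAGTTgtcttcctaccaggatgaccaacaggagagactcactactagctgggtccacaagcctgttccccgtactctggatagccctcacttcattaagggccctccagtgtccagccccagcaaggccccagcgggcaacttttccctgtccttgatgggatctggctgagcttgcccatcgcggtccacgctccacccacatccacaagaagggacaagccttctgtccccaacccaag
Sfn: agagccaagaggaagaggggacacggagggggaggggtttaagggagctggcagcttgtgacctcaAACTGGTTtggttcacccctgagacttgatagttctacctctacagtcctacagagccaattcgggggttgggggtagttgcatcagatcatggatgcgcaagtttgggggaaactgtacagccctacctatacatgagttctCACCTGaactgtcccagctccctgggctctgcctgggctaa

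In these windows Sfn had a Grainyhead-like match 184 bases and an E-box 41 bases before the start. Gjb2 had an AP-2 match at 124 and an E-box at 9 bases, Gjb6 had a Grainyhead-like match at 244 bases, and the Lgals7 window held none of the 4. The RefSeq table gave starts for 20 of the 35 members, 11 of them among the 18 that fell. AACCNGTT was found before 3 of the 20 (15%), Cgn, Sfn and Gjb6, and before 2% of 27025 genes with a window. CACCTG was found before 10 of the 20 (50%, against 19.4% of all genes), 6 of them among the 11 that fell. GCCNNNGGC was found before 6 (30% against 15.4%) and TATAAA before 2 (10% against 14.3%). A match describes the letters in the window and is not a binding site. The RefSeq start of Lgals7 lies inside the longer gene model of GENCODE M21, at 28863853 to 28866284 of chromosome 7, and an antisense gene of GENCODE, Gm10648, overlaps that model over 2432 bases.

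The rest of the epithelium was examined in lists of genes that are not members. Of 14 epithelial transcription and splicing regulators, 8 were lower and 0 higher at an unadjusted p under 0.05, and DESeq2 called 3 lower. In 8 of them every deletion library lay below every control, where 13.5% of all tested genes did so. Past the edgeR threshold, 1 of the 14 fell and 0 rose, with 13 below 0 and a median log2 fold change of -0.26. The one that fell was Zfp750, a factor of terminal keratinocyte differentiation, at 12.9 ± 0.539 and 6.83 ± 1.69 CPM (SD, n = 3 each; 1.89-fold, edgeR adjusted p = 0.00859). Of 13 keratins, 4 fell (median -0.71), among them Krt14, the basal keratin, 1.78-fold, Krt18, a keratin of simple epithelia and periderm, 1.46-fold, and Krt6a 5.68-fold, whose reads the close copy Krt6b could share. Of 11 hemidesmosome and basement membrane genes, 5 fell (median -0.32). Lamb3, which encodes a laminin chain that helps to anchor basal cells, fell 1.67-fold (edgeR adjusted p = 0.00167), and Plec, the plectin gene, 1.25-fold. Of 11 tested periderm and stratification genes outside the members, 4 fell (median -0.70), among them S100a14 at 1.68-fold and Trim29 at 1.35-fold. Of 8 other proteases, inhibitors and targets tested, 3 fell: Tmprss4 at 3.04-fold, Scnn1a, a sodium channel subunit, at 1.69-fold, and the serpin Serpinb5 at 1.53-fold.

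Of 12 tested adherens junction and desmosome genes outside the members, 2 fell, Nectin4 at 1.37-fold and Perp, a tetraspan protein of desmosomes, at 1.37-fold, and the median was -0.09. Ctnnb1, which encodes beta-catenin, was at 1397, 1465 and 1602 CPM (control) against 1475, 1475 and 1586 CPM (deletion; log2 fold change 0.02 ± 0.07, 95% interval -0.12 to 0.17). Of 20 other tight junction and polarity genes, 1 fell, Cldn10 at 1.77-fold, and the median was 0.01. Tjp1, which encodes ZO-1, did not pass (log2 fold change -0.24 ± 0.08, edgeR adjusted p = 0.0991). Among other connexins, Gja5 and Gjc1, of vessels and muscle among others, rose 1.601-fold and 1.26-fold (edgeR adjusted p = 0.00834 and 0.00586). Gja1, the connexin 43 gene, had overlapping groups (log2 fold change -0.05 ± 0.13, edgeR adjusted p = 0.858).

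**Figure D3:**
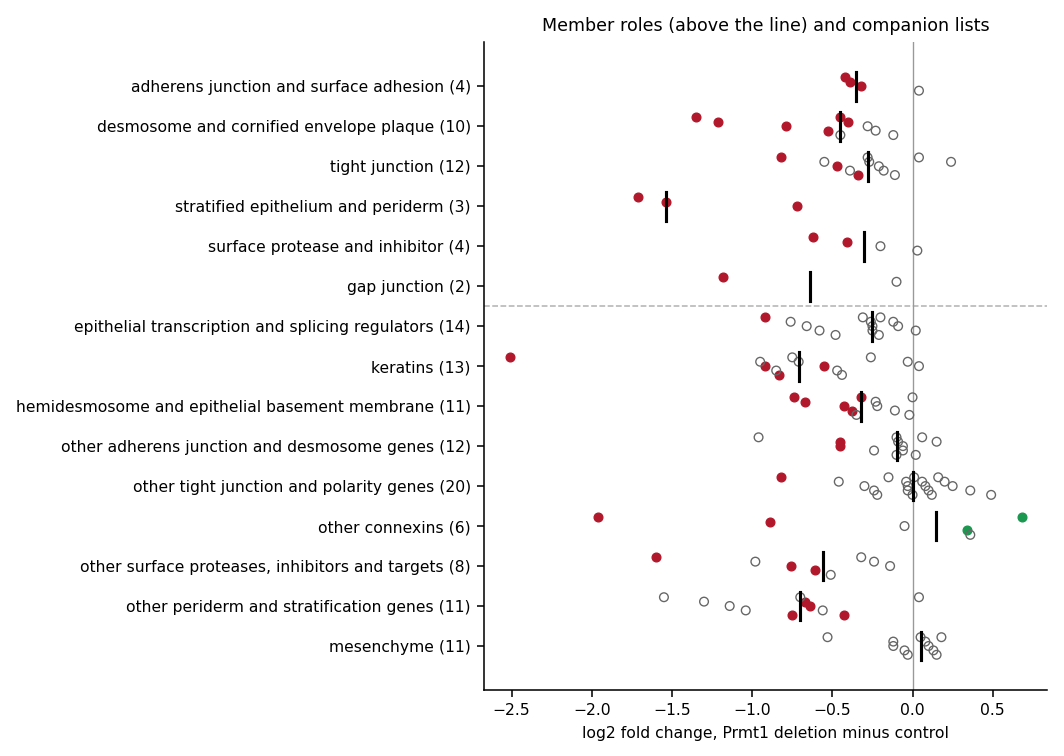
Each point is 1 tested gene at its log2 fold change, deletion minus control, for the 6 member roles above the dashed line and for the companion lists and mesenchyme markers below it, with the number of genes in brackets. Red marks genes that fell, green those that rose and open circles the rest, and black bars are medians: -1.54 for the periderm members, 0.01 for the other tight junction genes.

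The members were also set against the regulators within each library. The mean log2 CPM of the 35 members was 4.54, 4.54 and 4.36 in controls cont212, cont213 and cont220, and 3.92, 3.97 and 4.12 in libraries mut208, mut211 and mut221. Relative to the mean of the 14 regulators, the members stood at 0.35, 0.41 and 0.28 in the controls and at 0.22, 0.20 and 0.26 in the deletion libraries, a difference of -0.12 with groups that did not overlap. Relative to Trp63 alone, the difference was -0.37, but the groups overlapped, at -1.36, -1.49 and -1.92 in the controls and -1.71, -1.95 and -2.22 in the deletion libraries. Relative to the 13 keratins it turned to 0.22, with -1.07 ± 0.10 in the controls and -0.84 ± 0.08 in the deletion libraries (SD, n = 3 each). On this scale the members were lower relative to the regulators and higher relative to the keratins in the deletion libraries, a description with no test. The keratin mean includes Krt6a, with the largest fall in that list (log2 fold change -2.51, where the list median was -0.71). The ratio without Krt6a was not computed.

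Markers of some other tissues also shifted, in either direction. In a list of 8 markers of ciliated and nasal epithelium, which shares claudins and Epcam with oral epithelium, 4 fell and 0 rose, and their summed level was 65.3 to 118 CPM in the controls and 42.1 to 52.2 CPM in the deletion libraries. Skeletal muscle markers rose in 6 of 9, from a sum of 436 to 494 CPM to a sum of 768 to 1270.5 CPM. Of 11 mesenchyme markers 0 passed in edgeR (1 lower and 2 higher at an unadjusted p under 0.05, and the same counts by DESeq2). Their median log2 fold change was 0.05, with 5 of 11 below 0. Their sums were 9766 to 11260.5 CPM in the controls and 8716 to 9758 CPM in the deletion libraries. Much of each sum was Col1a1 (means of 4078 and 2824 CPM) and Col3a1 (3061.5 and 2817 CPM). Cartilage markers rose in 3 of 6. Of the 5 bone markers tested 0 passed in edgeR, but 5 were lower at an unadjusted p under 0.05 and 5 were called lower by DESeq2, and the sum of the list was 833 to 1208 CPM in the controls and 156 to 321 CPM in the deletion libraries. None of the markers in these 5 lists was at 0 in all libraries. The part of these shifts in the members' results was not tested.

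Against control library cont220 alone, most calls ended. With cont212 and cont213 left out, 2 members were called lower, Lgals7 and Gjb2, where 0.22% of tested genes were. With embryo sex as a covariate, which again leaves the deletion libraries against cont220, 3 were called lower, the same 2 and Sfn, where 0.332% of tested genes were. The log2 fold changes against cont220 alone were -1.66 for Lgals7 (edgeR adjusted p = 0.0234) and -1.01 for Gjb2 (edgeR adjusted p = 0.032). All 18 members that fell kept a log2 fold change below 0 there. That direction was fixed beforehand, since in each of them every deletion library already lay below cont220. In 0 of them did the fold move by more than 1.5 times, though cont220 is also among the controls of the main fit. Pkp1 and Dsp hardly moved (-1.21 and -0.44, edgeR adjusted p = 0.182 and 0.162), and Dsg3 was at -1.26 (edgeR adjusted p = 0.124). Spint1, in which cont220 was the low control, went from -0.62 to -0.20. Of the 17 members that did not pass, 5 were below 0 against cont220 and 10 changed sign, among them Cldn3, Cldn7, Cldn23 and Cgn, which went to 0.28, 0.06, 0.16 and 0.16. Control library cont220 was the lowest control in 26 of 35 members, and in 36.5% of all tested genes.

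**Figure D4:**
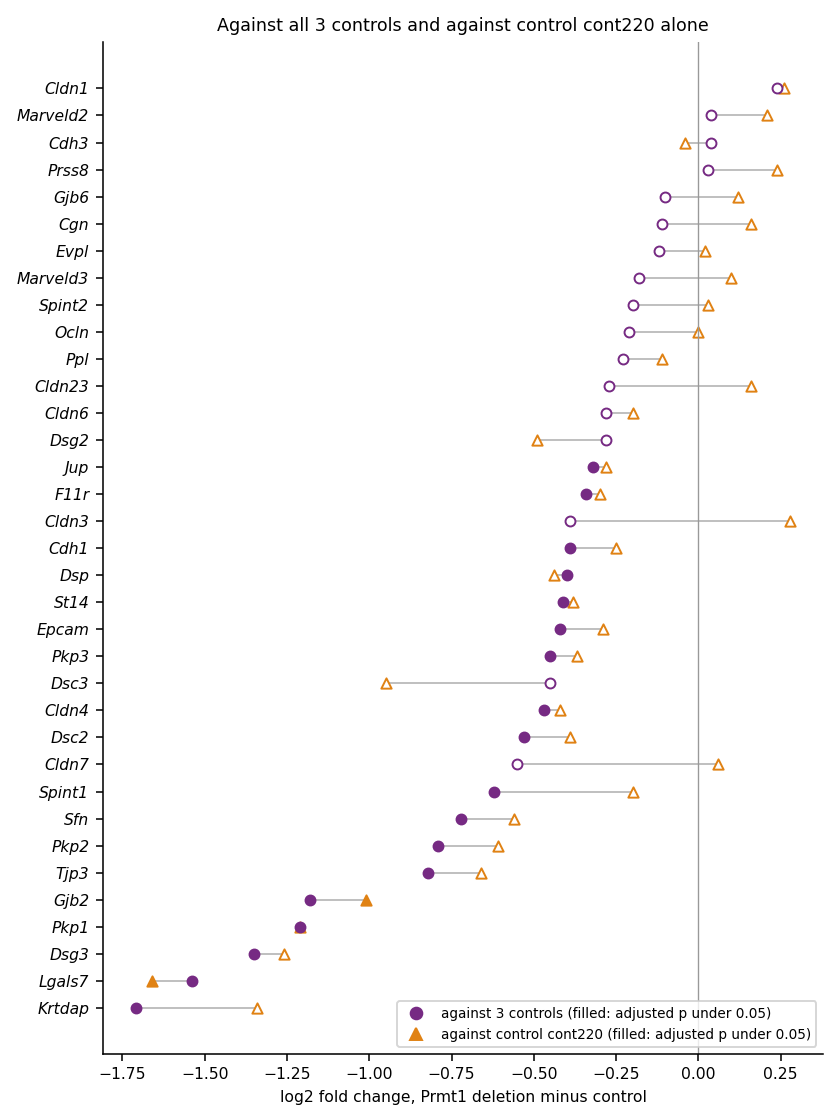
Members by log2 fold change, deletion minus control, measured against all 3 controls (purple circles) and against control library cont220 alone (orange triangles), filled where adjusted p is under 0.05. The strongest falls, from Krtdap to Gjb2, stay below -1 in both, while Cldn3, Cldn7 and Cldn23 move across 0.

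The count of 18 depended on several single libraries. It was 8 without cont213 (0.802% of all tested genes lower), 12 without mut211 (1.58%), 13 without mut208 (1.25%) and 14 without cont212 (2.3%). Without cont220 it was 18 (3.67%), with Cldn7 in place of Jup, and without mut221 it was 19 (4.16%). Lgals7, Gjb2, Sfn, Dsg3, Dsc2, Epcam and Cldn4 passed whichever single library was left out. Jup and Spint1 passed in 1 of those 6 fits, and St14 and Pkp2 in 2. Requiring a change beyond 1.2-fold left 8 members (0.897% of all tested genes lower): Dsg3, Dsc2, Pkp1, Tjp3, Sfn, Lgals7, Krtdap and Gjb2. With the globin ratio as a covariate, an alternative chosen after seeing the data, 5 members were called lower (0.596%): Dsg3, Sfn, Lgals7, Gjb2 and Dsg2. DESeq2 called 20 lower (5.38%), limma voom 17 (2.83%) and edgeR without the filter 19 (3%).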

How the data were processed

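Poly(A) RNA of palatal shelves was sequenced in 3 control and 3 deletion libraries. The deposited table holds expected counts, which the authors made per gene: per the submitters' processing notes the tools were CASAVA 1.8.2, STAR 2.4.1d and Partek, with build mm10, and the strand setting is not given in the sources used here. Of the values, 23.04% to 23.8% per library were not whole, and all were rounded. Table columns name a group and a number that is in no label, so each column was used as a library of its group.

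Genes were filtered with filterByExpr (minimum count 10, total 15), scaled by TMM, and tested with edgeR 4.0.16 (robust quasi-likelihood F test, R 4.3.3), with Benjamini-Hochberg adjustment over 19284 genes and a threshold of 0.05. Standard errors are the absolute log2 fold change over the root of the F statistic. Libraries held 44919889 to 50022829 counts. On simulated data over 19284 genes for this comparison, 46% of genes changed 1.5-fold and 66% of those changed 2-fold were recovered. At 4-fold 88% and at 8-fold 100% were recovered, with 10 false calls. The simulation changed 50 genes at each fold and held no fold below 1.5, so it does not cover smaller falls among the members. It set no difference of sex or globin ratio between the groups. Alternatives were DESeq2 1.42.0, limma 3.58.1 with voom, other scalings and filters, a minimum change, covariates, and each library left out. Pairs of libraries within a group had chi-square values of 7.74 to 37.27 for each degree of freedom, above counting noise. All 6 were kept as separate libraries, although repeat preparations of 1 RNA can also exceed counting noise. Promoter windows came from RefSeq (GRCm38.p6), lengths and coordinates from GENCODE M21 (mm10). The members and gene lists were chosen with earlier results of these data known. Every member is accounted for, those past the threshold with every library's value; of each other list, up to 3 genes of smallest p past the threshold are named, with Trp63, Ctnnb1, Tjp1 and Gja1, except that some genes are not reported here.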

Additional observations from a re-analysis of the deposited data

How the results depend on the processing

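No paired analysis was possible because the columns carry no replicate number that the labels give, so the planned fit with a replicate block was not run. Over all genes, 1352 were called, against 2125 with DESeq2, 413 with a minimum change of 1.2-fold, 129 with embryo sex as a covariate, 89 without controls cont212 and cont213, 294 with the globin ratio as a covariate (an alternative chosen after seeing the data), and 356 to 1872 with 1 library left out. Of the members, 18 were called, and 8, 3, 2 and 5 under the same settings from the minimum change onwards, and 8 to 19 with 1 library left out. Of the companion and marker lists, 38 genes were called, 74 with DESeq2, then 23, 10, 9 and 16, and 17 to 57 with 1 library left out. The log2 difference of members relative to regulators was -0.12, but -0.37 relative to Trp63 alone and 0.22 relative to the keratins, and -0.15 to -0.09 with 1 library left out.

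Members that changed direction had not passed the test. With embryo sex as a covariate these were Cdh3 (-0.04), Evpl (0.02), Cldn3 (0.28), Cldn7 (0.06), Cldn23 (0.16), Marveld3 (0.09), Cgn (0.16), Spint2 (0.03) and Gjb6 (0.12). Without controls cont212 and cont213 they were the same, at the same values but for Marveld3 (0.10), together with Ocln (0.00). With the globin ratio they were Cdh3 (-0.14), Cldn3 (0.03), Cldn23 (0.11), Marveld3 (0.17), Cgn (0.10) and Gjb6 (0.18). With 1 library left out the log2 fold changes ran from -0.07 to 0.13 for Cdh3, -0.04 to 0.16 for Marveld2, -0.07 to 0.13 for Prss8 and -0.20 to 0.10 for Gjb6. The cause was not tested in any of these. Sex and deletion overlap in these libraries except through cont220. The lowest count behind a member was 22 (Krtdap), and the effect of depth was not tested.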

Other observations

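Among the 8 ciliated and nasal epithelium markers, Foxj1, the master regulator of motile cilia, fell, and Tekt1, Dnah5 and Sec14l3 fell with it. Foxj1 was at 43.4, 45.1 and 22.5 CPM (control) against 10.9, 9.77 and 7.77 CPM (deletion), with cont220 far below the other controls. Its means were 37.0 CPM in the controls and 9.46 CPM in the deletion libraries (edgeR adjusted p = 0.0315, n = 3 each). Among 6 tooth germ epithelium markers 0 passed in edgeR (2 were lower at an unadjusted p under 0.05, and DESeq2 called 1 lower), with a summed level of 41.1 to 110.0 CPM in the controls and 36.3 to 85.7 CPM in the deletion libraries. Of the 4 salivary gland markers tested 0 passed in edgeR (1 was higher at an unadjusted p under 0.05 and by DESeq2), with sums of 35.2 to 39.4 and 38.0 to 47.7 CPM. With embryo sex as a covariate 1 ciliated and nasal marker was called lower.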
